A study of Mus musculus with 4 samples.

Results

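The 41 genes described here are the laminin chains, the integrin chains and 4 basement membrane linkers found among the 32285 features of the deposited matrices. The rule takes symbols and no measured value, with every gene named for a laminin alpha, beta or gamma chain (11 genes), every gene named for an integrin alpha or beta chain that the pattern of the rule matched (26 genes), and Nid1, Nid2, Hspg2 and Agrn. Single CD45- cells of the mouse thymus had been profiled by droplet-based 3′ RNA-seq, in which each captured transcript molecule is counted once by a unique molecular identifier (UMI). The study follows how the stroma of the thymus changes with age, and these libraries bear on the part that Foxn1, the transcription factor that drives thymic epithelial cell (TEC) identity, has in the appearance of age-associated TECs. WT 1 and WT 2 are wild-type libraries, and Z/Z 1 and Z/Z 2 come from mice with 2 copies of a hypomorphic Foxn1 allele that carries LacZ (genotype homozygous LacZ), present in all cells of the animal. All 4 libraries are from untreated C57BL/6 mice of 6 months. The protocol pools 10 to 15 thymi for a preparation, depletes CD45-positive cells on magnetic beads and sorts the remainder, so each library stands for a pool and not for 1 mouse. The labels give the sex as female in one field and as male in another.

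Laminins are heterotrimers of an alpha, a beta and a gamma chain that polymerize into the laminin sheet of the basement membrane. Nidogens, perlecan and agrin link that sheet to collagen IV and to the cell. Integrins are alpha-beta heterodimers that bind laminins, collagens, fibronectin and other ligands outside the cell and couple them to the actin or keratin cytoskeleton inside it. In the thymus, basement membranes underlie the capsule, surround the vessels and are in contact with TECs.

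The promoters of Lamb1, Hspg2 and Itgb8 are shown because their genes had the smallest p-values among the members that differed between genotypes in TECs and for which RefSeq gave a promoter, as the first 2 of the higher genes and the first of the lower ones. Each sequence covers 250 bases before to 50 bases after the gene start on GRCm38.p6 and is written 5′ to 3′ on the strand of the gene. Capitals mark GACGC, the core bases that FOXN1 binds. The Lamb1 promoter lies at chr12:31265043-31265342 on the plus strand, that of Hspg2 at chr4:137468553-137468852 on the plus strand, and that of Itgb8 at chr12:119238227-119238526 on the minus strand.
Lamb1: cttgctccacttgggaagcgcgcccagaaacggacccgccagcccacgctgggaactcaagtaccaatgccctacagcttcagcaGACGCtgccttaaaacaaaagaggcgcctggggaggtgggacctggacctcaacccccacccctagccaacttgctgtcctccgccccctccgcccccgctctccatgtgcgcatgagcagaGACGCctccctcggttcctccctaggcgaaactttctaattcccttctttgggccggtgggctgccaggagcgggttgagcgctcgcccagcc
Hspg2: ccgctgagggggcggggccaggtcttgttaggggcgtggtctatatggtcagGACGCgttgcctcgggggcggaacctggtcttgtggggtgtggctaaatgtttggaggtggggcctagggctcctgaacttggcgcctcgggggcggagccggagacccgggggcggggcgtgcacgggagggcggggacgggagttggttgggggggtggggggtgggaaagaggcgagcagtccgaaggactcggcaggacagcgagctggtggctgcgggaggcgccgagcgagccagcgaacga
Itgb8: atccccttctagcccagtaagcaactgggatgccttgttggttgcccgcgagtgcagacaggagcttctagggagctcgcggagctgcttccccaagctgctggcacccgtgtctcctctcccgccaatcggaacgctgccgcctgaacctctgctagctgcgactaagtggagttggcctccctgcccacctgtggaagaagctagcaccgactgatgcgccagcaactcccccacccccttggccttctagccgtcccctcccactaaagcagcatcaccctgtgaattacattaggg
The Lamb1 window holds GACGC in 2 places and the Hspg2 window in 1, all as written, and the Itgb8 window holds it on neither strand. RefSeq gave promoters for 26 of the 41 members, 30 windows in all, of which 9 (30.0%) hold GACGC on either strand. The share among all 32851 promoter windows of this length is 27.2%. Among the 8 genes with a window that differed in TECs, GACGC is present for 5, namely Hspg2, Itga2, Itga5, Itgb7 and Lamb1. Counted per gene, it is present for 9 of the 26 members and for 8009 of all 27025 genes. These shares were not tested against each other. A match describes letters and is not a binding site.

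The libraries held 2731, 1192, 5558 and 4500 called cells (WT 1, WT 2, Z/Z 1, then Z/Z 2), with 8468086 to 50705511 UMIs each, and 9846 cells were kept. WT 2 was the shallowest library. TECs numbered 558, 105, 1960 and 1544, fibroblasts 596, 190, 1160 and 725, endothelial cells 109, 25, 696 and 673, and mural cells (pericytes and vascular smooth muscle) 71, 12, 462 and 326. Cells were assigned from marker genes, and in every tested lineage the defining markers were present. One cluster counted with the TECs, aaTEC2-like, went against its lineage in part, since 11.5% of its cells had an Epcam UMI and the mural list, not the TEC list, was its highest lineage list. It is kept because the study describes such age-associated cells as lacking EpCAM, and results are given without it where they depend on it. Its share of the TECs was 2.15%, 0%, 28.3% and 24.6% in the same order. Libraries of 1 genotype shared called barcodes, 202 between the WT and 249 between the Z/Z libraries, of which 18 and 32 were among the kept cells. Libraries of different genotype shared 0 to 6 called barcodes. Whether the 2 libraries of a genotype are fully independent was not tested. Foxn1 itself had 90.6, 125, 50.9 and 68.5 CPM without TMM scaling in TECs (log2 fold change -0.70, SE 0.23, adjusted p = 0.0832). It was lower in both Z/Z libraries but did not pass the threshold.

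Values below are UMI counts scaled to the total of the sum (CPM), from the UMIs summed over the cells of a lineage in 1 library, with TMM scaling for TECs, fibroblasts and endothelial cells and without it (plain CPM) for mural cells, single clusters, marker sums and empty droplets. They are always given in the order WT 1, WT 2, Z/Z 1, Z/Z 2. A log2 fold change is positive where Z/Z was above WT and comes with its standard error (SE). A gene is said to have risen or fallen when its adjusted p in edgeR's quasi-likelihood test, adjusted over all genes tested in the lineage, was under 0.05. With 2 libraries per genotype, the p-values measure the spread between these libraries only. In sums of this kind, fewer expressing cells and less RNA per cell cannot be told apart. A 3′ count does not correct for transcript length, so levels are compared between lineages for 1 gene and not between genes.

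Each stromal lineage was highest for some of the members. Of the 41 genes, 12 had their highest mean in TECs, 13 in fibroblasts, 7 in endothelial cells and 9 in mural cells, and these levels are a description with no test. For Lama3, Lamb3, Itga3 and Itgb6 the range over the 4 libraries in TECs stood clear of the next stromal lineage. Lama3 and Lamb3 encode chains of an epithelial laminin. Lamb3 had a mean of 34.1 CPM in TECs against 3.41 in fibroblasts, the next stromal lineage. Residual thymocytes, which are outside this ranking, had 39.7, 23.3, 29.5 and 42.4 plain CPM of Lamb3, as much as TECs. Lama3 was shared with endothelial cells, at 118 against 69.5 CPM. For Itgb4, which joins Itga6 in the hemidesmosome integrin, the TEC mean of 64.9 CPM was above the endothelial 25.6, but the ranges overlapped.

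**Figure D1:**
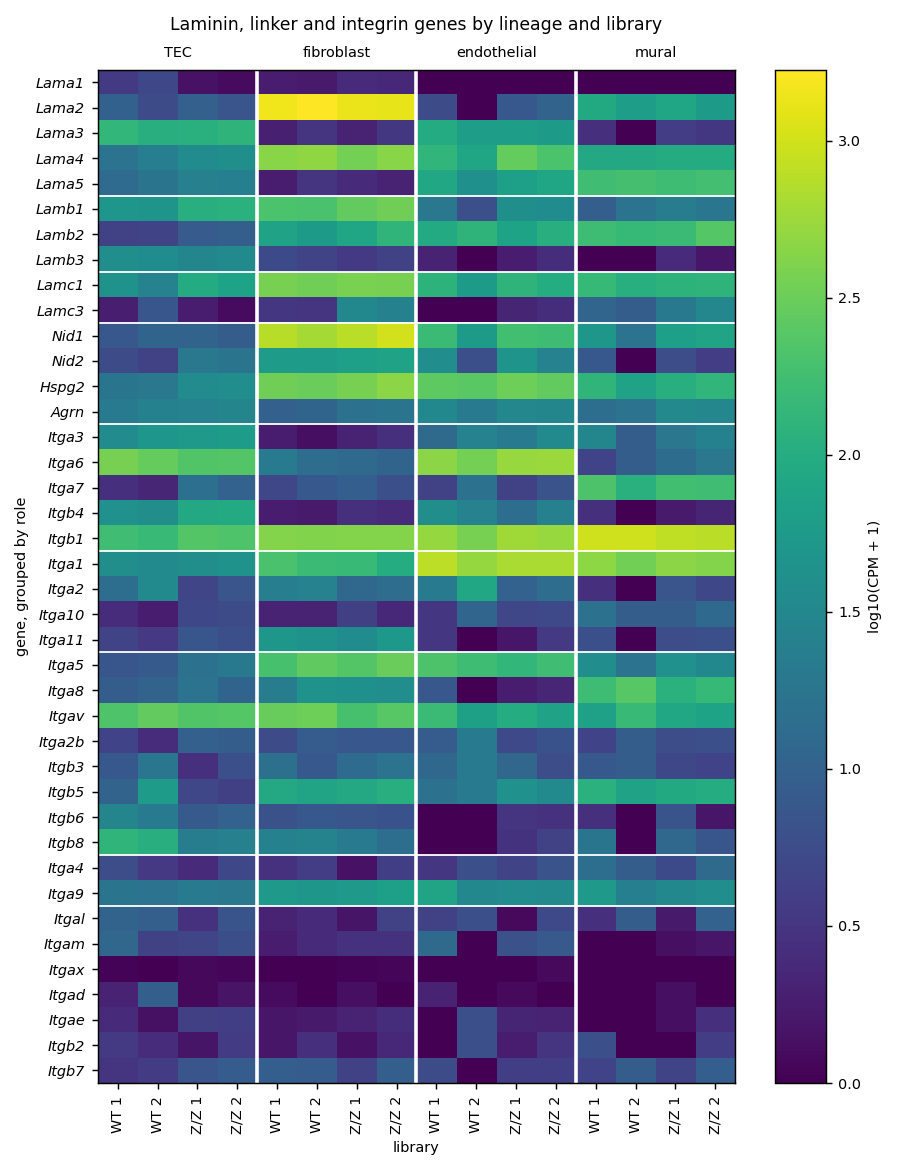
Level of 40 of the 41 genes (rows, grouped by role) in each library (columns, grouped by lineage), coloured by log10 of CPM plus 1. Lama2 and Nid1 are brightest in fibroblasts, Itga1 in endothelial cells, and Itgb1 and Itga7 in mural cells.

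Fibroblasts held the largest amounts of Lama2, Lama4, Lamb1, Lamc1, Nid1, Nid2 and Itga11, all 7 with libraries separate from the next lineage. Lama2, the alpha chain of muscle and mesenchymal laminin, averaged 1433 CPM there and 71.5 in mural cells. Itga11, a collagen receptor chain of mesenchymal cells, averaged 45.0 CPM against 4.37 in TECs. Within fibroblasts, the linker Nid1 was highest in the capsular-like cluster, at 1732, 1947, 1523 and 1590 plain CPM, against 306, 251, 407 and 482 in the cluster led by Dcn and Ptn. Mural cells led for Lama5, Lamb2, Itga7, Itgb1 and Itga8, all 5 again separate from the next lineage. Itga7, a laminin receptor chain of muscle, had 212, 111, 177 and 170 plain CPM in mural cells and at most 6.92 CPM on average elsewhere. Endothelial cells stood clear for 1 gene, the collagen and laminin receptor chain Itga1, at 655 CPM against 426 in mural cells. Itga6 was highest on average in endothelial cells, at 477 against 276 CPM in TECs, with overlapping ranges. By the GENCODE annotation of GRCm38, Lamb1 spans chr12:31265234-31329644, Hspg2 chr4:137468769-137570630, Itgb8 chr12:119158022-119238802, Itgb4 chr11:115974709-116008412, Itga7 chr10:128933818-128958282, Nid2 chr14:19751265-19811787 and Lamc3 chr2:31887291-31946539. Nid2, Itga7 and Lamc3 each overlap another listed gene on the opposite strand. Counts of Lamb3, Itga6 and Itga1 are less certain than the rest, because another listed gene overlaps each on the same strand.

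In TECs the genotypes differed for 14 of the 40 members tested, where 22.4% of all 18887 genes tested passed the same threshold. In Z/Z 9 rose, against 10.4% of all genes, and 5 fell, against 12.0%. The genes that rose were laminin chains Lama4, Lamb1 and Lamc1, the linkers Nid2 and Hspg2, and the integrin chains Itga5, Itga7, Itgb4 and Itgb7. The genes that fell were Lama1, Itga2, Itgb5, Itgb6 and Itgb8. At an unadjusted p under 0.05 there were 22 members, but no share of all genes at that threshold is given for comparison. The median log2 change of the tested members was 0.29, against -0.00 over all genes. Itgax, with 6 UMIs in all, was not tested.

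Several measures of the libraries moved with genotype in TECs. The share of Aire stage-like cells was 51.3%, 47.6%, 3.27% and 5.57% of TECs, and the share of the cluster led by Gpc5 and Grip1 was 10.9%, 11.4%, 35.2% and 38.2%. The median UMIs per TEC were 15608, 16965, 6058.5 and 6267.5. The summed level of the 7 fibroblast markers in TECs was 140, 113, 274 and 310 CPM, none of the 7 at 0, against 13990 to 18360 in fibroblasts themselves. The 7 endothelial markers, none at 0, summed to 30.4, 26.7, 42.8 and 54.1 CPM, against 3921 to 5994 in endothelial cells. Myeloid markers, 6 genes with none at 0, ran the other way, at 286, 698, 62.4 and 87.4 CPM. The 3 parathyroid markers, none at 0, overlapped between genotypes and were highest in WT 1, at 1127, 39.7, 232 and 24.1 CPM. The share of TEC UMIs attributed to empty-droplet RNA was 12.9%, 3.77%, 25.9% and 17.0%. The part of these in the results was not tested, beyond the alternatives named below.

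Among the laminin alpha chains, 1 of the 5 rose and 1 fell. Lama3, the epithelial chain, had 136, 103, 110.0 and 125 CPM, and the genotypes overlapped (log2 fold change -0.03, SE 0.18, adjusted p = 0.920). Within clusters its level was 520 plain CPM in the Gpc5 and Grip1 cluster of WT 1 and 167 and 205 in those of Z/Z 1 and Z/Z 2. Lama4, the alpha chain of vascular and mesenchymal laminins, had 15.9, 22.8, 34.7 and 39.6 CPM. Both Z/Z libraries were above both WT libraries, and Lama4 rose by a log2 change of 0.97 (SE 0.24, adjusted p = 0.0409). In Z/Z, 32.7% and 33.0% of it came from aaTEC2-like cells. After removal of empty-droplet RNA, in which Lama4 had 65.1, 48.7, 111 and 108 plain CPM, the estimate was -0.02 (adjusted p = 0.989), so neither call nor direction held.

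Lama1, the alpha chain of embryonic basement membranes, was at the low end of the range. It had 33, 10, 8 and 4 UMIs, or 2.54, 4.00, 0.418 and 0.231 CPM. Both WT libraries were above both Z/Z libraries, and Lama1 fell by a log2 change of 3.22 (SE 0.63, adjusted p = 0.0238). Most of its UMIs lay in Aire stage-like cells, namely 24 of 33, 5 of 10, 6 of 8 and 3 of 4 in library order. Inside that cluster its level was 3.22, 3.36, 4.32 and 1.34 plain CPM, with the genotypes overlapping. Lama5, present in most epithelial and endothelial basement membranes, had 12.3, 16.4, 24.8 and 23.5 CPM. Its genotypes did not overlap, but the test was not passed (log2 fold change 0.78, SE 0.23, adjusted p = 0.0643).

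Of the beta chains Lamb1 rose in TECs. Its values were 48.7, 46.4, 106 and 116 CPM, which is 1.21 on the log2 scale (SE 0.14, adjusted p = 0.00862). Both Z/Z libraries were more than double both WT libraries. Within clusters the picture was mixed. In cTEC-like cells Lamb1 had 41.3 plain CPM in WT 1 and 138 and 142 in Z/Z 1 and Z/Z 2, whereas in the Gpc5 and Grip1 cluster it had 160, 111 and 124. On thinning each cell to equal UMIs, Lamb1 was not called (0.55, adjusted p = 0.112). In empty droplets it had 51.4, 34.6, 134 and 108 plain CPM, also higher in Z/Z. Lamb2 (3.39, 3.60, 7.42 and 8.44 CPM) missed the threshold at a log2 change of 1.19 (SE 0.34, adjusted p = 0.0581).

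Among the gamma chains, Lamc1, the partner in most laminins, rose. It had 44.8, 25.6, 96.2 and 73.8 CPM, with both Z/Z libraries above both WT libraries (log2 fold change 1.23, SE 0.30, adjusted p = 0.0387). Within 5 clusters that had cells enough in WT 1 and both Z/Z libraries, however, both Z/Z values were above WT 1 in 1 and below it in 3. Without the aaTEC2-like cells, where Lamc1 had 149 and 130 plain CPM in Z/Z, it was not called. Empty droplets had 95.2, 87.5, 135 and 121 plain CPM of Lamc1, also higher in Z/Z.

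The linkers Nid2 and Hspg2 rose, and Nid1 and Agrn were not called. Nid2 encodes nidogen 2, which connects laminin with collagen IV. It had 4.47, 3.20, 18.8 and 16.3 CPM, a log2 change of 2.13 (SE 0.30, adjusted p = 0.0119). In 4 of 5 clusters with cells enough, both Z/Z libraries were above WT 1, for example 3.81 in WT 1 against 22.6 and 21.7 plain CPM in aaTEC1-like cells. That WT 1 value rests on 2 UMIs, and the Z/Z 1 and Z/Z 2 values on 154 and 111. On thinning Nid2 was not called (1.67, adjusted p = 0.0755). Empty droplets had 9.16, 7.63, 23.9 and 22.6 plain CPM of Nid2, also higher in Z/Z. Hspg2, which encodes perlecan, had 16.8, 18.8, 34.9 and 36.7 CPM. Its groups were separate, with a log2 change of 1.02 (SE 0.18, adjusted p = 0.0197). Hspg2 was also abundant in empty droplets, at 71.8, 52.2, 167 and 182 plain CPM. With that RNA removed the estimate was -2.30 (adjusted p = 0.383), so neither call nor direction held.

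Of the laminin-binding integrin chains Itgb4 and Itga7 rose. Itgb4 encodes the beta chain of the hemidesmosome integrin and had 42.3, 38.4, 87.0 and 92.0 CPM. The groups were well apart, with a log2 change of 1.14 (SE 0.15, adjusted p = 0.00982). In aaTEC1-like cells it had 51.4 plain CPM in WT 1 against 99.4 and 110 in Z/Z, and in Aire stage-like cells 27.7 and 16.8 in WT against 79.2 and 67.0 in Z/Z. In the Gpc5 and Grip1 cluster WT 1 was higher, at 132 against 92.0 and 101. Itgb4 was not called on thinning every cell to equal UMIs (log2 fold change 0.35, adjusted p = 0.383) or on weighting cells equally (0.37, adjusted p = 0.184). Its partner Itga6 had 364, 286, 223 and 231 CPM and missed the threshold in the other direction (log2 fold change -0.52, SE 0.16, adjusted p = 0.0751).

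Itga7 was scarce in WT TECs and present in Z/Z TECs. It had 1.70, 1.20, 14.2 and 9.43 CPM, a log2 change of 2.93 (SE 0.42, adjusted p = 0.0121). Of its UMIs in Z/Z, 74.6% and 65.0% came from aaTEC2-like cells, which had 61.8 and 47.4 plain CPM. Without those cells the log2 fold change was 1.38 and no longer passed (adjusted p = 0.0935). Mural cells, whose summed marker level in the TEC sums was 470, 282, 556 and 591 CPM, had the highest Itga7 of any lineage. Empty droplets had 2.0, 1.2, 20.4 and 19.1 plain CPM of Itga7, also higher in Z/Z. Itgb1, the common beta partner, had 173, 151, 231 and 214 CPM and was not called (log2 fold change 0.46, SE 0.14, adjusted p = 0.0714).

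Of the 4 collagen-binding chains Itga2 was called, and it fell. This receptor chain had 13.6, 32.8, 3.76 and 6.07 CPM, lower in both Z/Z libraries by a log2 change of -2.19 (SE 0.51, adjusted p = 0.0354). In WT, 88.1% and 97.6% of its UMIs came from Aire stage-like cells. Inside that cluster its level was 20.95, 53.75, 14.4 and 21.01 plain CPM, with the genotypes overlapping. It was not called without WT 2 (-1.45, adjusted p = 0.0552), on thinning (-1.51, adjusted p = 0.0667) or with empty-droplet RNA removed (-2.57, adjusted p = 0.0697). Itga1 had 38.3, 32.8, 38.6 and 43.5 CPM, a log2 change of 0.20 (SE 0.18, adjusted p = 0.457).

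The chains that bind RGD motifs included the clearest loss. Itgb8 pairs with Itgav, and that integrin binds and activates latent TGF-beta. Itgb8 had 129, 105, 21.8 and 24.5 CPM, so both Z/Z libraries were far below both WT libraries, and it fell by 2.34 on the log2 scale (SE 0.18, adjusted p = 0.00650). It was the 1 member called under all 13 alternatives run for TECs. Aire stage-like cells held 92.4%, 94.3%, 58.4% and 59.1% of its UMIs. Inside that cluster the level was 208, 167, 176 and 112 plain CPM, with the genotypes overlapping. The share of TECs with at least 1 Itgb8 UMI was 38.2%, 35.2%, 6.84% and 8.81%, and after thinning each cell to 2000 UMIs 13.7%, 15.5%, 1.83% and 3.12%.

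Itgb6, the other epithelial TGF-beta-activating partner of Itgav, fell as well. It had 28.4, 20.8, 7.11 and 9.20 CPM (log2 fold change -1.61, SE 0.27, adjusted p = 0.0173), and both Z/Z libraries were below both WT libraries. Aire stage-like cells held 75.0% and 51.9% of its WT UMIs, and inside that cluster the level was 37.1, 18.1, 27.4 and 21.9 plain CPM, with the genotypes overlapping. Tuft-like cells held 17.12% and 28.85% of the WT UMIs of Itgb6. Their level was higher, at 97.3 plain CPM in WT 1 and 49.8 in Z/Z 2, the libraries with at least 20 such cells. Tuft-like cells were 6.99%, 5.71%, 0.357% and 1.68% of TECs. On thinning Itgb6 was not called (-1.21, adjusted p = 0.210). Itgav itself had 218, 284, 224 and 235 CPM with overlapping genotypes (log2 fold change -0.13, SE 0.17, adjusted p = 0.623). Itga5, the alpha chain of the fibronectin receptor, rose from 6.24 and 7.19 to 14.8 and 18.9 CPM (log2 fold change 1.35, SE 0.28, adjusted p = 0.0271). It had 43.3, 42.3, 76.7 and 96.7 plain CPM in empty droplets, and with that RNA removed the estimate turned to -1.60 (adjusted p = 0.564).

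The size of the Itgb5 difference, a vitronectin receptor chain, depended on WT 2. It had 9.56, 60.4, 3.87 and 3.12 CPM, a log2 change of -3.25 (SE 0.87, adjusted p = 0.0494). Of the 151 UMIs in WT 2, 147 came from Aire stage-like cells. Inside that cluster its level was 9.80, 98.8, 23.0 and 3.13 plain CPM, with the genotypes overlapping. Without WT 2 the log2 fold change was -1.42 (adjusted p = 0.0498).

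Of the alpha4 and alpha9 chains neither was called. Itga9 had 16.6, 16.0, 21.2 and 18.4 CPM. Among the leukocyte chains Itgb7 alone was called, with 2.16, 2.80, 6.01 and 7.58 CPM (log2 fold change 1.50, SE 0.40, adjusted p = 0.0484), and it was lost under 8 of 13 alternatives. Its range was low, yet both Z/Z libraries were above both WT libraries. Itgal had 9.79, 8.39, 1.88 and 5.96 CPM and was not called. The 12 thymocyte markers, none at 0 in TECs, summed to 154, 83.1, 34.5 and 116 CPM.

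The TEC calls depended on having both Z/Z libraries. Without Z/Z 1 the calls were 3 (Lamb1, Itgb4 and Itgb8), and without Z/Z 2 they were 4 (the same 3 with Itga7). Without the aaTEC2-like cells 10 members were called, 9 of them among the 14, and Lama4, Lamc1, Itga5, Itga7 and Itgb5 were not called.

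**Figure D2:**
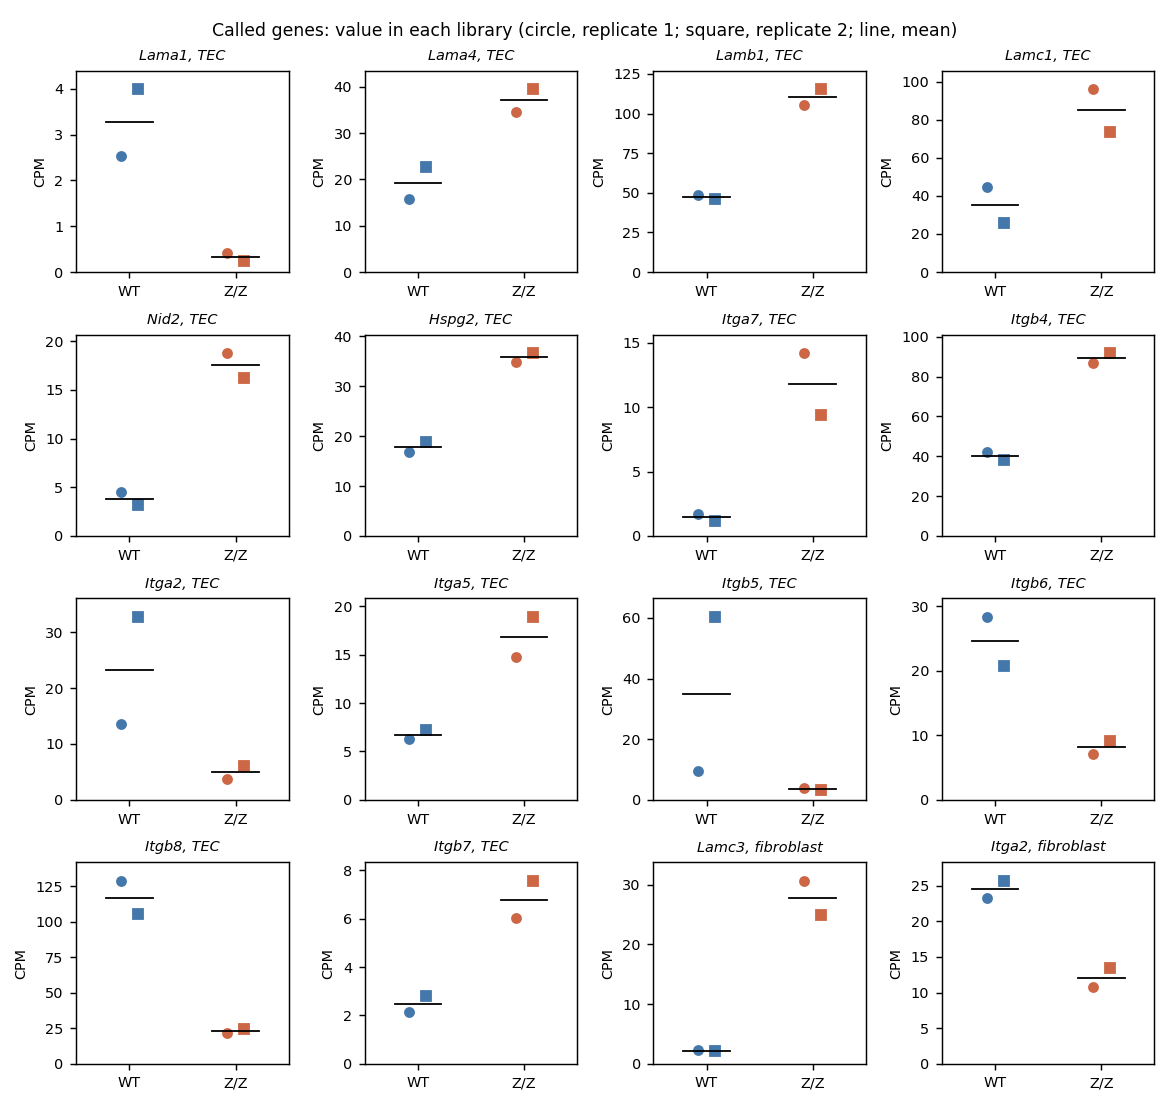
CPM of each called gene in each library, by genotype, with the mean of each group as a line. Circles are replicate 1 and squares replicate 2. The groups do not overlap in any panel, but the genes were chosen by the test on these same libraries, so this is no further support.

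**Figure D3:**
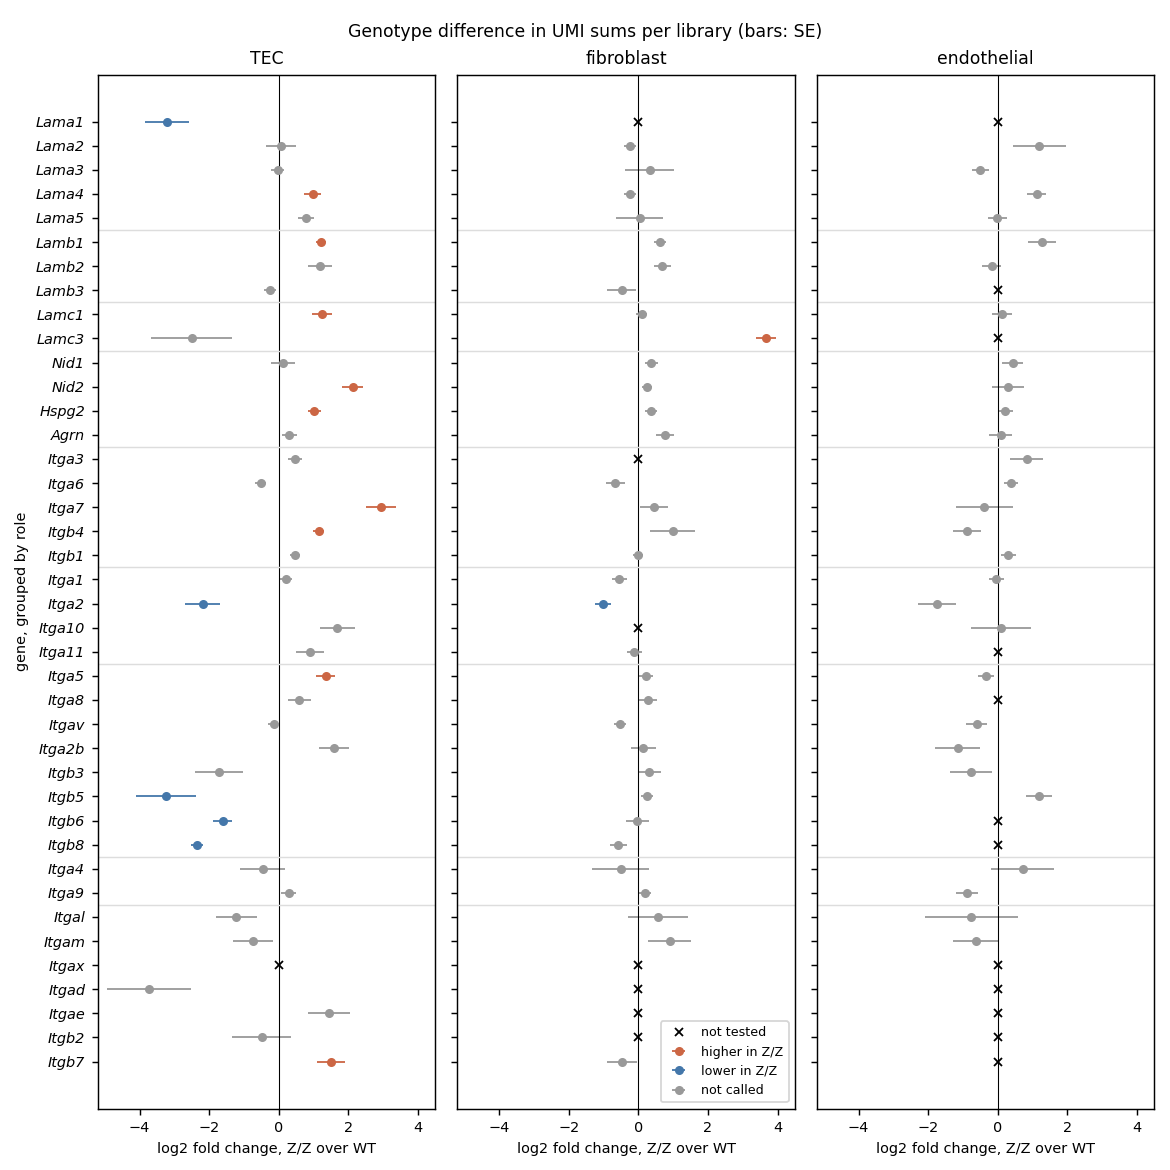
Log2 fold change of Z/Z over WT with its SE for 40 of the 41 genes in the 3 lineages. Red and blue points passed the threshold upward and downward, grey points did not, and a cross at 0 marks a gene that was not tested.

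**Figure D4:**
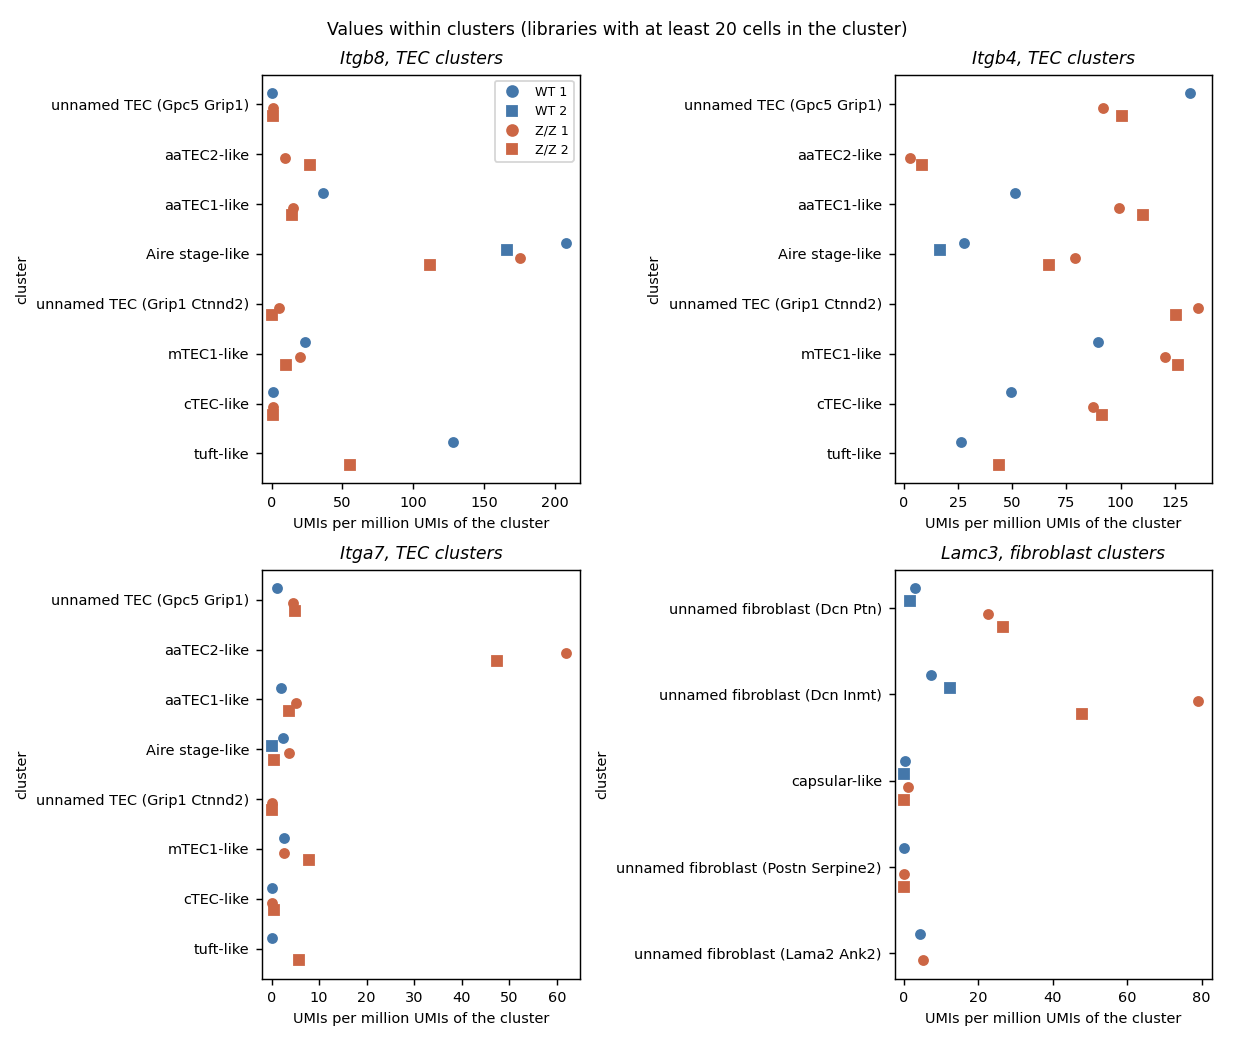
Level of Itgb8, Itgb4, Itga7 and Lamc3 within clusters, as plain CPM of the cluster, for libraries with at least 20 cells in it. Among the TEC clusters shown, Itgb8 is highest in Aire stage-like cells in each library and Itga7 in the aaTEC2-like cells of Z/Z. Among the fibroblast clusters shown, Lamc3 is highest in Z/Z cells of the cluster led by Dcn and Inmt, then of that led by Dcn and Ptn.

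Fibroblasts differed for 2 of the 34 members tested, a share of 5.88% where 3.06% of all genes were called. Lamc3 rose and Itga2 fell. There were 9 members with an unadjusted p under 0.05, again with no share of all genes for comparison. The median log2 change of members was 0.20, against 0.00 over all genes. Not tested were Lama1, Itga3, Itga10, Itgax, Itgad, Itgae and Itgb2, each at 3.09 CPM or less in every library.

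Lamc3, a laminin gamma chain, had the largest fold change of the fibroblast members. It had 19, 6, 358 and 179 UMIs, which is 2.22, 2.11, 30.7 and 25.0 CPM. The fold change was 3.66 on the log2 scale (SE 0.29, adjusted p = 0.000399), and both Z/Z libraries were more than 10-fold above both WT libraries. In the cluster led by Dcn and Ptn its level was 2.95, 1.74, 22.6 and 26.6 plain CPM, and in that led by Dcn and Inmt 7.33, 12.5, 78.9 and 47.7. In the capsular-like cluster it had at most 3 UMIs in a library, and in the cluster led by Postn it had 0. The share of fibroblasts with a Lamc3 UMI was 2.18%, 2.11%, 13.8% and 12.6%, and after thinning 0.341%, 0%, 4.93% and 4.02%. Thinned endothelial cells, with median depths of 6628, 6447, 5342.5 and 5008 UMIs against 13088, 13617, 9790 and 9532 for fibroblasts, had 0%, 0%, 0.148% and 0.154%. Without Z/Z 1 the log2 fold change was 3.50, but the test was not passed (adjusted p = 0.128). In vascular smooth muscle-like cells the gene had 11.1 plain CPM in WT 1 and 17.2 and 29.4 in the Z/Z libraries, and in pericyte-like cells of Z/Z it had 23.7 and 32.3. Its mean over the 4 libraries was 16.8 plain CPM in mural cells and 15.0 CPM in fibroblasts.

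Itga2 fell in fibroblasts also, from 23.3 and 25.7 to 10.8 and 13.4 CPM (log2 fold change -1.02, SE 0.23, adjusted p = 0.0458). Only 4 of 12 alternatives called it. Within 4 clusters that had cells enough in WT 1 and both Z/Z libraries, both Z/Z values were below WT 1 in 3. In the other, the cluster led by Postn, Itga2 was higher in Z/Z, at 38.15 plain CPM in WT 1 against 56.8 and 110. Members of the other groups had the following values in fibroblasts. Lama2 had 1417, 1682, 1340 and 1294 CPM, lower in Z/Z but not called (adjusted p = 0.517). Lamb1 had 205, 196, 285 and 333 CPM, a log2 change of 0.62 that missed the threshold (SE 0.16, adjusted p = 0.0711). Lamc1 had 363, 330.5, 377 and 363 CPM with overlapping genotypes. The linker Nid1 had 752, 622, 787 and 998 CPM, with both Z/Z values above WT. Itgb1 was nearly flat, at 428, 415, 423 and 418 CPM. Itga1 was lower in Z/Z, at 200.1, 159, 148 and 99.1 CPM, though not called (adjusted p = 0.213). Itgav had 296, 329, 191 and 246 CPM, also lower and not called (adjusted p = 0.157). Itga9, which joins Itgb1, had 52.4, 49.7, 52.6 and 64.3 CPM. The leukocyte chain Itgb7 had 8.07, 7.75, 3.26 and 8.51 CPM and overlapped.

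In endothelial cells none of the 29 members tested was called by edgeR, where 2.13% of all genes were. At an unadjusted p under 0.05 there were 5, again with no share of all genes for comparison. DESeq2, which gave an adjusted p for 13 members, called 1. The median log2 fold change was 0.07, against 0.03 over all genes. WT 2 rested on 25 endothelial cells. The smallest adjusted p belonged to Lama4, the chain of the endothelial basement membrane, with 131, 77.1, 289 and 204 CPM. Both Z/Z libraries were higher, at a log2 change of 1.12 (SE 0.27, adjusted p = 0.0543), and 7 of 12 alternatives called it. Empty droplets had 65.1, 48.7, 111 and 108 plain CPM of Lama4, also higher in Z/Z.

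Most of the other members named in endothelial cells overlapped between genotypes. Lamb2 had 92.3, 123, 72.7 and 108 CPM and Lamc1 had 122, 56.5, 126 and 97.1 CPM, each overlapping. Hspg2 had 269, 252, 330.1 and 280 CPM. Itgb1 had 520, 365, 584 and 532 CPM. For both of these genes the Z/Z values were above the WT values, without a call. Itga1 had 794, 519, 658 and 649 CPM. Itga5 had 210, 164, 136 and 170 CPM. Itga9, the receptor chain also known from lymphatic valves, had 75.8, 30.8, 34.6 and 34.0 CPM. These last 3 overlapped between genotypes, as did Itgam at 12.1, 0, 5.30 and 6.89 CPM. Not tested were Lama1, Lamb3, Lamc3, Itga11, Itga8, Itgb6, Itgb8, Itgax, Itgad, Itgae, Itgb2 and Itgb7. Lama1 had 0 UMIs in all 4 endothelial sums.

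Endothelial clusters differed in which alpha chains they carried, with no test. Lama3 had 207, 160 and 145 plain CPM in arterial-like cells of WT 1, Z/Z 1 and Z/Z 2, against 80.1, 16.2 and 20.5 in the larger capillary-like cluster. Lama4 was distributed the other way, at 81.1, 148 and 116 in arterial-like cells and 238, 350 and 240 in that capillary-like cluster. Lama5 was higher in arterial-like cells in each of these libraries, at 167, 107 and 147 against 40.0, 53.9 and 62.1. The smaller capillary-like cluster had cells enough only in Z/Z 1 and Z/Z 2. It made up 2.75%, 0%, 12.4% and 9.81% of endothelial cells in library order. It had 116 and 117 plain CPM of Lama3, 440 and 449 of Lama4 and 44.9 and 86.3 of Lama5. For Lama3 it was thus nearer the arterial-like cells than the larger capillary-like cluster.

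The genotype effect was compared between lineages in 1 fit over the 3 lineages, 39 members of 17664 genes. The effect in TECs minus that in fibroblasts was called for 11 members, where 13.5% of all genes were called. It was positive for Itga5 (1.06), Lamc1 (1.14), Lama4 (1.20), Nid2 (1.82), Itgb7 (2.03) and Itga7 (2.26), all on the log2 scale. It was negative for Lamc3 (-5.63, SE 0.83, adjusted p = 0.000477), Lama1 (-3.95), Itgb5 (-3.03), Itgb8 (-1.82) and Itgb6 (-1.68). Lamc3 had 0.848, 6.40, 0.836 and 0.231 CPM in TECs, where 16 UMIs of WT 2 lay in Aire stage-like cells. The size of its difference depended on that library, at -4.32 without WT 2 and -7.25 without WT 1. Lama4 rose in TECs where fibroblasts had 446, 494, 355 and 442 CPM. The TEC calls of Lama4, Lamc1, Itga5 and Itga7 were lost without aaTEC2-like cells, that of Nid2 on thinning, and that of Itgb7 under most alternatives. With empty-droplet RNA removed, the TEC estimates of Lama4 and Itga5 turned negative, as given above.

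For TECs minus endothelial cells 7 members were called, where 7.13% of all genes were. Positive were Lamb2 (1.21), Itga5 (1.52) and Itgb4 (1.84, SE 0.39, adjusted p = 0.00991). In TECs alone, the estimate of Itga5 turned negative with empty-droplet RNA removed, and Itgb4 was not called on thinning. Itgb4 had 38.4, 25.7, 13.6 and 24.6 CPM in endothelial cells, lower in Z/Z and not called there. Negative were Itga6 (-1.13, SE 0.22, adjusted p = 0.00596) and Itgb5 (-4.01). Itga6 had 466, 355, 531 and 557 CPM in endothelial cells, so its direction there was opposite to that in TECs. Itgb8 and Itgb6 were also called, but both had 0 UMIs in the WT endothelial sums, so that the sizes of these 2 differences depend on the prior count and are no bound. For fibroblasts minus endothelial cells edgeR called 0 members, where 0.532% of all genes were called, and DESeq2 called 1. There were 9 at an unadjusted p under 0.05, with no share of all genes for comparison. The smallest adjusted p of that contrast was for Itga6, at 0.0502.

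Lists of other genes that act with laminins and integrins were tallied in the same fits. Of 20 other basement membrane genes 9 rose and 1 fell, with a median log2 change of 0.83, beside 10.4% of all genes that rose, 12.0% that fell and an overall median of -0.00. The 3 with the smallest p were Sparc (1.74, adjusted p = 0.00845), a collagen-binding matrix protein, Smoc2 (1.39, adjusted p = 0.00913) and the collagen IV chain Col4a1 (1.13, adjusted p = 0.00914). Smoc2 was near 0 on thinning (0.18, adjusted p = 0.709) and on weighting cells equally (0.009, adjusted p = 0.984). With empty-droplet RNA removed Col4a1 was not called (0.68, adjusted p = 0.0658). Of 14 laminin receptor and hemidesmosome genes 7 rose and 1 fell, with a median of 0.60. The syndecan Sdc4 rose by 1.57 (adjusted p = 0.00862) and the sarcoglycan Sgce by 3.04 (adjusted p = 0.00910), while the hemidesmosome collagen Col17a1 fell by 2.37 (adjusted p = 0.00913).

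Of 21 integrin adhesion complex genes in TECs 14 rose and 1 fell, with a median of 1.04, beside the same 10.4% and 12.0% of all genes. Those with the smallest p were the integrin activator Fermt2 (1.55, adjusted p = 0.00697), the scaffold Bcar1 (1.55, adjusted p = 0.00845) and the actin crosslinker Flna (1.36, adjusted p = 0.00887). Flna was not called on thinning (0.65, adjusted p = 0.0545) or with empty-droplet RNA removed (1.17, adjusted p = 0.0526). Of 17 other integrin ligands 3 rose and 2 fell, with a median of 0.31. The first 3 by p were Adam15 (1.68, adjusted p = 0.0137), the tenascin gene Tnc, which fell by 2.02 (adjusted p = 0.0153), and the vitronectin gene Vtn (3.07, adjusted p = 0.0186). Adam15 was not called on thinning (1.06, adjusted p = 0.0606) or with empty-droplet RNA removed (1.11, adjusted p = 0.173). Vtn, also among the markers used to name pericyte-like cells, was not called without aaTEC2-like cells (2.33, adjusted p = 0.0619). Fewer genes of these 4 lists were called under some alternatives. With thinning the calls in either direction were 6, 5, 6 and 3 in the order above (10, 8, 15 and 5 before), with empty-droplet RNA removed 5, 6, 11 and 2, and without aaTEC2-like cells 9, 5, 13 and 3. Without Z/Z 1 they were 2, 3, 6 and 1, and without Z/Z 2 they were 6, 5, 7 and 1.

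In fibroblasts 6 of 18 tested basement membrane genes rose and 2 fell, with a median of 0.70, where 1.76% of all genes rose and 1.30% fell. The collagen IV chain Col4a6 rose by 2.28 (adjusted p = 0.00681), and the netrin Ntn4 and Papln fell by 1.63 (adjusted p = 0.00863) and by 1.81 (adjusted p = 0.00947). None of 12 laminin receptor genes was called, Sdc4 being first by p at 0.73 (adjusted p = 0.0622), then Plec at -0.64 (adjusted p = 0.0645) and Sdc1 at -0.55 (adjusted p = 0.120). Of 20 adhesion complex genes 1 fell, Tns3 by 0.94 (adjusted p = 0.0249), and Pxn (0.65, adjusted p = 0.0622) and Actn1 (-0.62, adjusted p = 0.0804) came next. Of 14 ligands 3 rose and 1 fell, with Thbs1 at 1.51 (adjusted p = 0.00382), Tnc at -2.09 (adjusted p = 0.0178) and Cdh1 at 2.04 (adjusted p = 0.0193) first by p. Cdh1 is also 1 of the 9 TEC markers. It had 1.87, 2.11, 7.72 and 8.51 CPM in fibroblasts against 519 to 784 plain CPM in TECs, while the 9 markers, none at 0, summed to 182, 144, 134 and 232 plain CPM in fibroblasts. The share of fibroblast UMIs attributed to empty-droplet RNA was 2.08%, 3.13%, 6.39% and 7.42%, and with that RNA removed Cdh1 was too low to be tested. No gene of the 4 lists was called in fibroblasts without Z/Z 1 or without Z/Z 2.

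In endothelial cells 1 of 10 tested basement membrane genes rose, where 1.09% of all genes rose and 1.04% fell, namely Sparc by 1.07 (adjusted p = 0.0414), with Tinagl1 (0.98, adjusted p = 0.0696) and Col4a1 (0.78, adjusted p = 0.0742) next. None of 11 laminin receptor genes was called, the first by p being Sgce (1.36), Sdc1 (-1.22) and Cd151 (0.43), with adjusted p-values of 0.211, 0.293 and 0.322. Of 19 adhesion complex genes the actin linker Vcl fell by 1.63 (adjusted p = 0.00466), with Lims2 (0.88, adjusted p = 0.0504) and Fermt2 (0.79, adjusted p = 0.0712) next. Of 14 ligands 2 rose and 3 fell. The first 3 by p were Fbn1 (-1.58, adjusted p = 0.0114), the latent growth factor Tgfb1, which integrins release (1.24, adjusted p = 0.0152), and Tgfb2 (-1.36, adjusted p = 0.0315). Calls in the 4 lists were 0, 0, 1 and 0 without Z/Z 1 and 0, 0, 1 and 1 without Z/Z 2.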

How the data were processed

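The authors mapped the reads of each library with Cell Ranger (listed by the submitters' processing notes as 7.01) to mm10 (that software counts intronic reads by default, which adds counts to long genes such as many members here) and deposited raw UMI counts for each gene in each barcode. Whether the v2 kit of the labels was used is not resolved, since the methods also name another version. A cell was kept if over 1000 genes were detected and mitochondrial UMIs stayed below 20% (10245 of 13981), and the 3.9% with the highest Scrublet score per library (399) were removed, because the automatic threshold marked 97. Counts were scaled to 10000 per cell, with a pseudocount of 1. Leiden clusters (scanpy 1.11.5, leidenalg 0.10.2, resolution 1) were built without 113 held-out genes, members and markers among them, and were named from marker lists as X-like. Thresholds for naming were set after seeing the data.

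UMIs were summed per library and lineage, for lineages with at least 20 cells in every library, and tested with edgeR 4.0.16 (TMM, filterByExpr, quasi-likelihood F test, two-sided) under R 4.3.3, with Benjamini-Hochberg adjustment over all genes at 0.05. Mural cells were not tested, since WT 2 had 12. The differences between lineages were contrasts of 1 fit over all 12 sums. That fit takes the sums of 1 library as independent. The edgeR script was run on simulated counts with known changes before use. Ribosomal and haemoglobin genes (100 features) were left out. Gene positions were read from the GENCODE annotation and promoters from RefSeq, both of GRCm38, and the gene starts of the 2 can differ. Genes were named in the text if called, if highest in mean CPM within their role group and lineage, or if among the 3 smallest p of a pathway list; Nid1, Lama5 and other members outside that rule were chosen after their values were seen. The members and lists were chosen with earlier results of these data known. One member is not reported here. Alternatives included DESeq2 1.42.0, no filter on low counts, leaving out each library, a replicate block, thinning to 2000 UMIs per cell, removal of the RNA of empty droplets (barcodes of at most 100 UMIs), more than 500 genes per cell, shared barcodes kept once, equal weighting of cells with limma 3.58.1, and TECs without aaTEC2-like cells. Applying them to the pathway lists was chosen after seeing the data. Shares and levels of clusters carry counting error, and depth limits low genes most in WT 2.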

Additional observations from a re-analysis of the deposited data

Results flagged for a closer look

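Differences of the genotype effect between lineages passed the test for 18 gene and lineage pairs, which is what brought each of them here. Values are differences of log2 fold changes (Z/Z over WT). For TECs minus fibroblasts they were -5.63 for Lamc3, -3.95 for Lama1, -3.03 for Itgb5, -1.82 for Itgb8, -1.68 for Itgb6, 1.06 for Itga5, 1.14 for Lamc1, 1.20 for Lama4, 1.82 for Nid2, 2.03 for Itgb7 and 2.26 for Itga7. For TECs minus endothelial cells they were -10.07 for Itgb8, -8.97 for Itgb6, -4.01 for Itgb5, -1.13 for Itga6, 1.21 for Lamb2, 1.52 for Itga5 and 1.84 for Itgb4. The first 2 of these rest on WT endothelial sums with 0 UMIs, so their sizes depend on the prior count. The Itgb5 differences rest in part on WT 2, which had 60.4 CPM in TECs against 9.56 in WT 1. The TEC calls of Lama4, Lamc1, Itga5 and Itga7 were lost without aaTEC2-like cells. With empty-droplet RNA removed, the TEC estimates of Lama4 and Itga5 turned negative.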

How the results depend on the processing

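Of 324 values of single genes under alternatives, 213 kept direction and side of the threshold, 101 lost their call, 7 gained one and 3 turned direction, all 3 in TECs on removal of empty-droplet RNA: Hspg2 to -2.30, Lama4 to -0.024 and Itga5 to -1.60. The counts of called members that moved by more than 1.5 times were as follows, and the cause was not tested. In TECs (14) thinning gave 5 of 33 tested and empty-droplet removal 7 of 34, and leaving out 1 library gave 3 to 13, with Z/Z 1 out giving 3 and Z/Z 2 out giving 4. In fibroblasts (2) no filter gave 4, thinning 1, empty-droplet removal 4, equal weighting 1, and leaving out 1 library 0 to 1. In endothelial cells (0) DESeq2 gave 1, no filter 3, empty-droplet removal 1, and leaving out 1 library 0 to 4. For the difference of TECs minus fibroblasts (11) DESeq2 gave 4 and leaving out 1 library 4 to 10. For TECs minus endothelial cells (7) no filter gave 13 and leaving out 1 library 2 to 8. For fibroblasts minus endothelial cells (0) no filter gave 2, DESeq2 1, and leaving out 1 library 0 to 1. Where 1 library was left out, the lone library of its genotype was assumed to vary like the others.

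Over all genes, calls in TECs (4239) came to 2552 with the block, 2498 with empty-droplet RNA removed, 2804 thinned, and 829 and 1682 without Z/Z 1 or Z/Z 2. In fibroblasts (424) they came to 1345 with no filter, 107 thinned, 284 with equal weighting, and 0 and 66 without Z/Z 1 or Z/Z 2. In endothelial cells (243) they came to 742 with no filter, 365 with the block, 145 thinned, 0 with equal weighting, and 959, 1038, 81 and 129 without WT 1, WT 2, Z/Z 1 or Z/Z 2. For the differences they ran, with 1 library out, from 975 to 2333 (main 2381), 514 to 1266 (1260, with 1868 for no filter) and 36 to 153 (94, with 422 for no filter and 217 for DESeq2). DESeq2 moved the median of all genes by over 0.1, to -0.16 in TECs and -0.15 in endothelial cells.

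Replicate numbers are shared by the labels, with no common source given. With the replicate number as a block, called members were 10 in TECs, 1 in fibroblasts and 2 in endothelial cells. Deviations of same-numbered libraries correlated at -0.086, -0.031 and -0.0067 in these lineages.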

Other observations

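A cluster of 104 and 31 cells in Z/Z 1 and Z/Z 2, with 0 in both WT libraries, was left unnamed. It was led by Trpm3, Ndrg2 and Ctnna2, and 24.4% of its cells had an Epcam UMI. In Z/Z 1 and Z/Z 2 it had 455 and 392 plain CPM of Itgav, 132 and 136 of Itga6, 117 and 116 of Lamc1 and 40.0 and 33.0 of Nid2. Lama1, Itgb5 and Itgb6 had 0 UMIs there. With no WT cells, no comparison of genotypes is possible.

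Residual thymocytes, 116, 45, 16 and 46 cells, had higher plain CPM of several leukocyte chains than the stromal lineages. Itga4, a chain of the receptor for VCAM1, had 278, 134, 192 and 345 plain CPM, against 3.17 CPM on average in TECs. Itgal, of the receptor for ICAM1, had 151, 125, 88.5 and 97.0, and its partner Itgb2 61.7, 29.2, 103 and 78.8. The values of Z/Z 1 rest on 67805 UMIs.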
